A study of Drosophila melanogaster with 6 samples.

Results

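The peaks described here are those of the fly protein Insensitive (Insv) that lie in the centromere-facing ends of chromosome arms X, 2L, 3L and 3R. A peak is an interval in which the authors' peak caller found Insv ChIP-seq reads to be enriched. Peaks were taken as members by the position of their midpoint on FlyBase release 5, from 20250000 up on X, from 21000000 up on 2L, from 22400000 up on 3L and up to 2000000 on 3R. On X, 2L and 3L the centromere lies past the highest coordinates of the arm, and on 3R it lies before the lowest. The rule took 595 of the 13016 peaks of the list, 103 on X, 129 on 2L, 56 on 3L and 307 on 3R. The remaining 9250 peaks of the same arms are called the rest of the arm below.

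The study mapped Insv in Kc167 cells, a female line derived from late embryos with the labelled genotype se/e. Its 3 Insv ChIP samples and 3 input samples share that line, and the labels name no treatment. Input is chromatin DNA that was not immunoprecipitated. The antibody was a rabbit polyclonal serum against Insv. The study is represented by 1 peak list without values for single libraries, so there is no replicate error to set beside a value, and read depth is unknown.

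Insv is known as a nuclear corepressor that takes part in Notch signalling and binds DNA through its BEN domain, a DNA-binding fold. The DNA next to fly centromeres is packed as heterochromatin, which is rich in transposon remnants and satellite repeats and poor in genes, and which is bound by HP1. The assembled ends of the arms run from gene-rich euchromatin into this repeat-rich sequence. Where that transition lies along each arm was not measured here, and the ends are defined by coordinates only. No peak was assigned to a gene, because no release 5 annotation was used here.

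All intervals below are exact or order-statistic 95% intervals that cover counting error over peaks of 1 list. Neighbouring peaks are not independent, so these intervals are too narrow, and no p-value is given.

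The ends of X, 2L and 3L carried Insv peaks more thinly than the rest of their arms, and the end of 3R carried them more densely. The borders were chosen with the low counts at the ends of X, 2L and 3L already known. The low densities of these ends are therefore a description and no independent finding. Density was 51.3 peaks per Mb (95% interval 41.9 to 62.2) in the X end and 118 per Mb (113 to 123) on the rest of X. It was 66.4 per Mb (55.5 to 78.9) in the 2L end and 91.6 per Mb (87.5 to 95.7) on the rest of 2L. The 3L end was the thinnest, with 27.1 per Mb (20.5 to 35.3), against 88.1 per Mb (84.2 to 92.0) on the rest of 3L. The 3R end had 156 per Mb (139 to 175) and the rest of 3R had 115 per Mb (111 to 120). As ratios of the end to the rest these were 0.435 (0.354 to 0.530) for X, 0.726 (0.602 to 0.868) for 2L, 0.308 (0.232 to 0.402) for 3L and 1.35 (1.20 to 1.52) for 3R. The 2L ratio was 0.986 (0.783 to 1.23) among the strongest 50% of the peaks and 0.970 (0.674 to 1.36) when peaks within 5 kb were joined, and it was 0.872 (0.742 to 1.02) with the border 250 kb further out, and each of these intervals includes 1. The 3R ratio was 1.33 (0.994 to 1.74) after joining, an interval that includes 1.

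**Figure D1:**
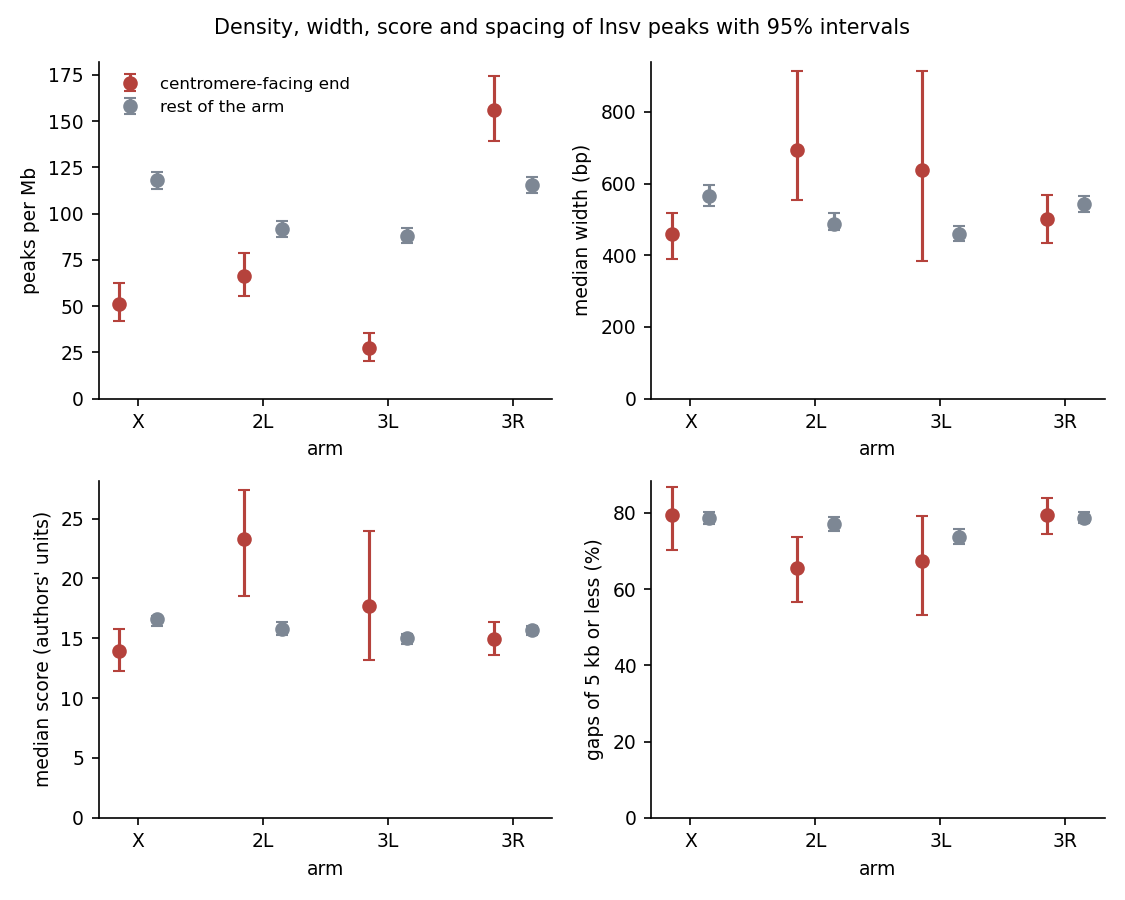
Peaks per Mb, median width in bp, median score in the authors' units and the share of gaps of 5 kb or less, for the centromere-facing end (red, left of each pair) and the rest of the arm (grey, right) on X, 2L, 3L and 3R. Points are values and bars are 95% intervals for counting error; density in the ends runs from 27.1 per Mb on 3L to 156 per Mb on 3R, and the 2L end has the highest median score.

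Set beside windows of the same length on the same arm, the 4 ends took different places. These places are descriptive too, as the low counts on X, 2L and 3L were known when the borders were chosen. The 103 peaks of the X end were fewer than in each of the 10 windows on the rest of X, which held 146 to 309. The 56 peaks of the 3L end were likewise fewer than in each of 10 windows, which held 66 to 387. The 2L end, with 129 peaks, was not extreme, since 3 of 10 windows held as few or fewer. The 307 peaks of the 3R end exceeded 11 of 13 windows. The windows next to the ends held 289 peaks on X, 269 on 2L, 268 on 3L and 132 on 3R. The end thus held fewer peaks than the window beside it on X, 2L and 3L, and more on 3R. At the telomere-facing tips, a window of that length held 203 peaks on X, 316 on 2L, 382 on 3L and 212 on 3R.

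**Figure D2:**
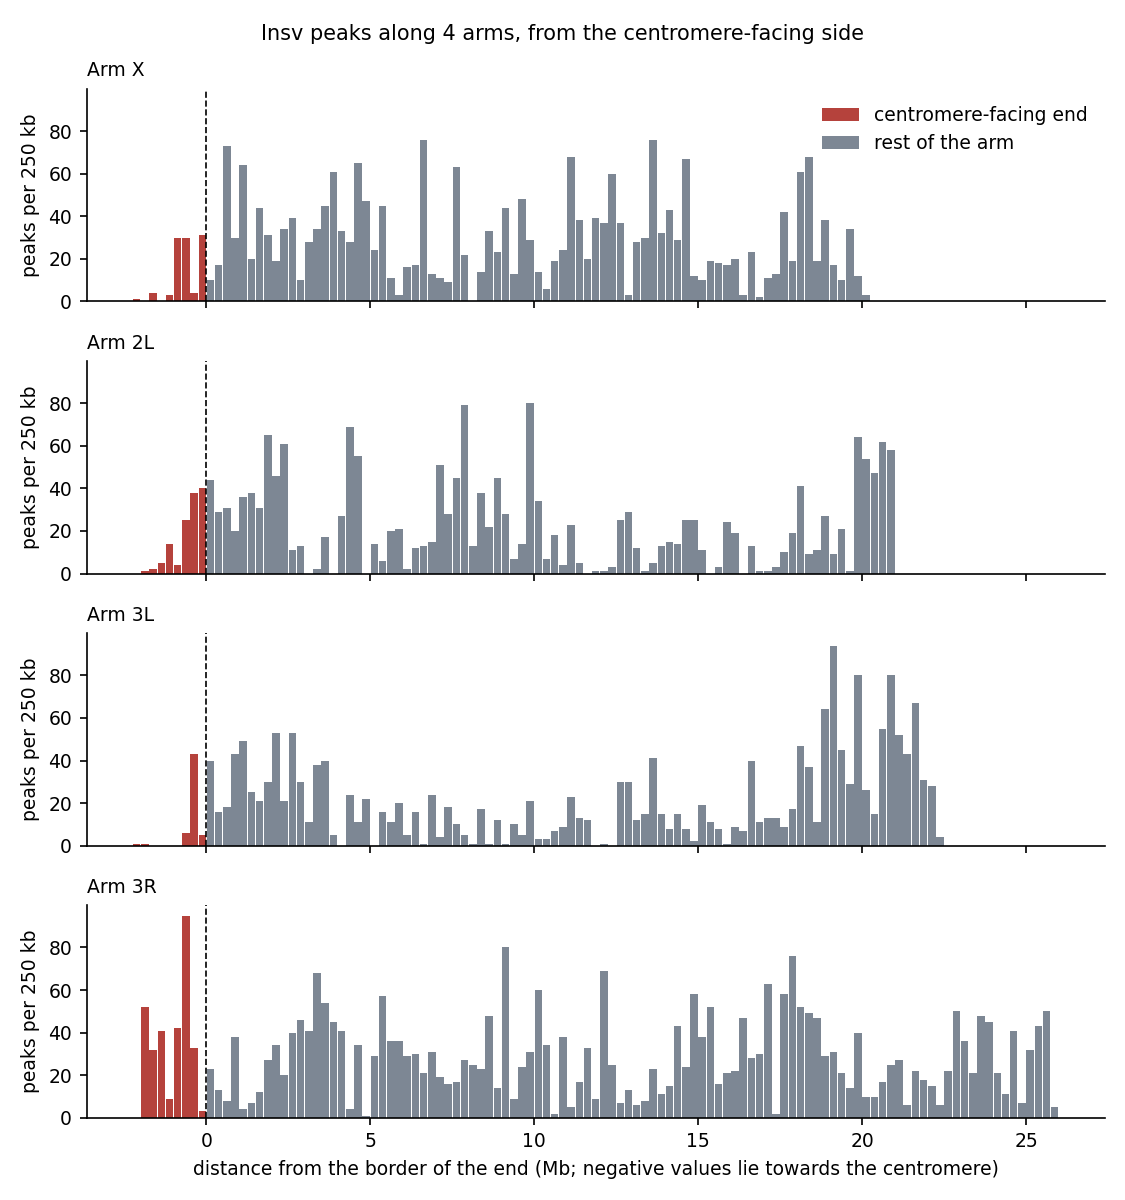
Insv peaks per 250 kb along X, 2L, 3L and 3R, plotted as distance in Mb from the border of the end (dashed line), with the centromere-facing end on the left in red and the rest of the arm in grey. Counts in the ends of X, 2L and 3L fall to between 0 and 5 in the innermost bins, while the innermost bin of 3R, which is incomplete, holds 52.

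Within the ends the peaks were unevenly placed. In 250 kb bins counted from the border towards the centromere, the X end held 31, 4, 30, 30, 3, 0, 4 and 0 peaks, with 1 more peak beyond. The 2L end held 40, 38, 25, 4, 14, 5 and 2 peaks, with 1 beyond. On 3L the bins held 5, 43, 6, 0, 0, 0, 0 and 1 peaks, with 1 beyond. The 3R end held 3, 33, 95, 42, 9, 41 and 32 peaks, and 52 in its incomplete innermost bin. For comparison, the median 250 kb bin on the rest of the arm held 26 peaks on X, 17 on 2L, 16 on 3L and 27 on 3R. The bin of 95 peaks in the 3R end exceeded each of the 103 complete bins on the rest of 3R, where the highest held 80.

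In each of the ends of X, 2L and 3L, some bins within 1000 kb of the border held more peaks than the median bin of the rest, and no bin beyond 1000 kb did. The bin at the border of the 3L end was itself thin, with 5 peaks, below the lower quartile of 8 on the rest of 3L. On 3L, 90% of the peaks of the end lay within 507 kb of the border, which is 24.6% of its span. The corresponding stretch was 992 kb or 49.4% of the span on X and 1168 kb or 60.1% on 2L. On 3R it took 1829 kb or 92.9% of the span.

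The longest stretch without any peak lay in the inner part of each of the ends of X, 2L and 3L. The longest on 3L ran from 23085602 to 24385597 and took 63.0% of the end, with 2 peaks further in, and the longest on the rest of 3L was 503 kb. On X the longest ran from 21261184 to 21872965, or 612 kb, with 5 peaks further in, and the longest on the rest of X was 441 kb. Another stretch of the X end lay nearer to the border, from 20531780 to 20898833 (367 kb), with 68 peaks further in. The longest in the 2L end, from 22528448 to 22941484, was 413 kb, and 4 stretches on the rest of 2L were at least as long. Between peaks of the 3R end the longest ran from 319572 to 464507, or 145 kb. On the rest of 3R 28 stretches were at least as long. At the border the 3R end was empty over a longer stretch, since its outermost peak ended at 1834497 and the border is at 2000000. How well reads map in this repeat-rich sequence was not measured, so a stretch without peaks need not be a stretch without Insv.

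**Figure D3:**
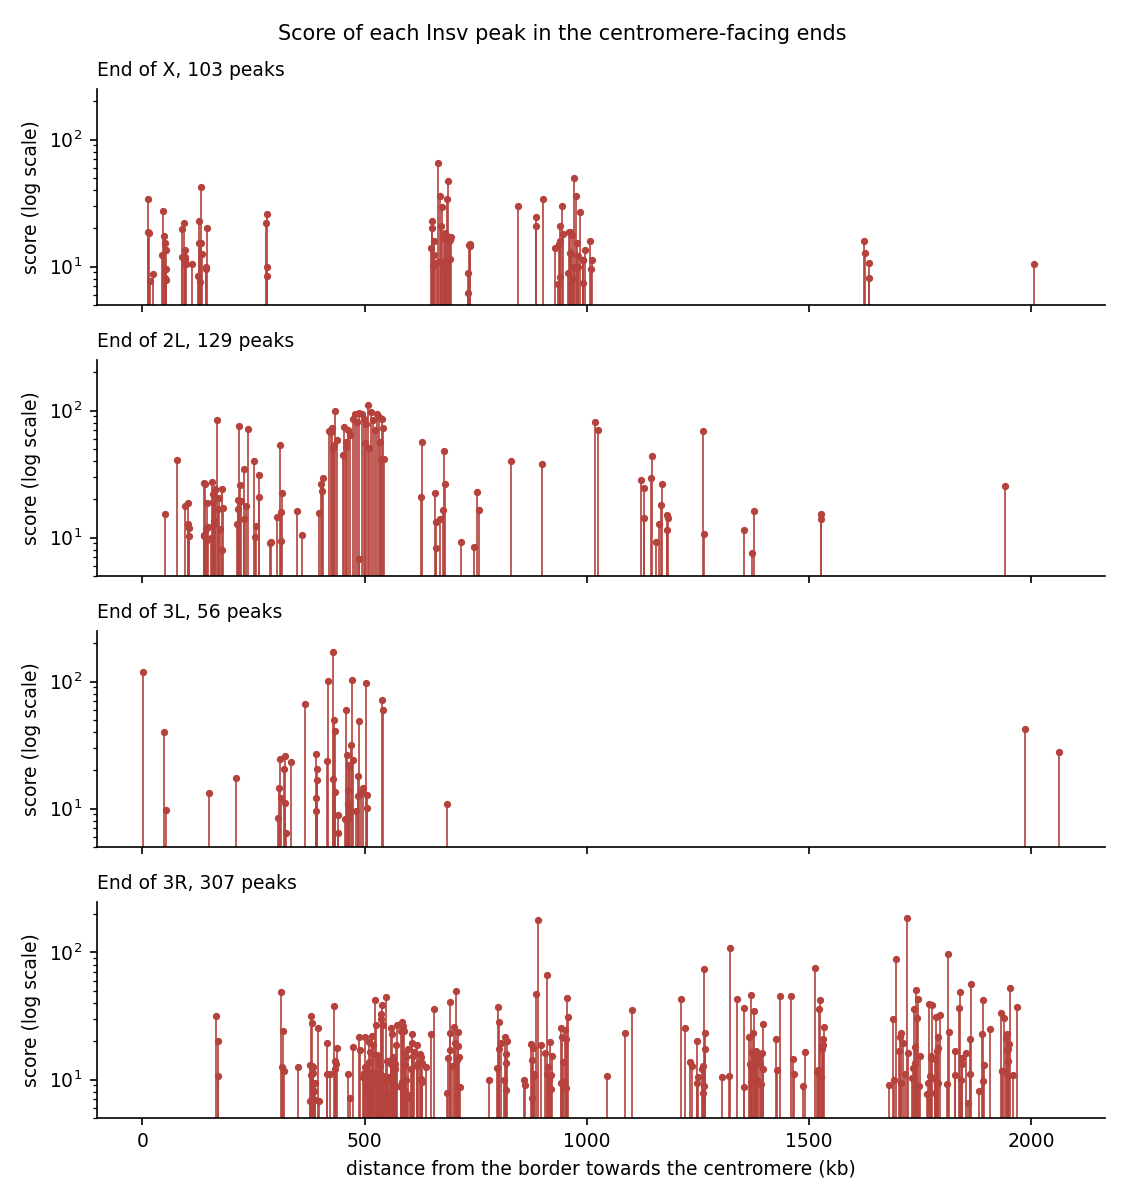
Score of each of the 595 Insv peaks (log axis, authors' units) against distance in kb from the border towards the centromere, 1 panel per end. The X end has 1 peak above 50, and the 2L end has a block of high peaks near 500 kb. The 3L end has 54 of 56 peaks in its outer 750 kb. Peaks of the 3R end lie along most of its length, with 3 in the 250 kb next to the border and 9 from 1000 to 1250 kb.

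Peaks of the 4 ends also differed in strength, in opposite directions on X and 2L. The score is the one the authors' caller gave. No header or label says on which scale it was made, so it only orders peaks within the list. The median score was 14.0 (12.3 to 15.8) in the X end and 16.6 (16.1 to 16.9) on the rest of X. In the 2L end it was 23.3 (18.6 to 27.4), against 15.8 (15.3 to 16.4) on the rest of 2L. The intervals overlapped on 3L, with 17.7 (13.2 to 24.0) in the end and 15.0 (14.5 to 15.3) on the rest, and on 3R, with 14.9 (13.6 to 16.3) in the end and 15.7 (15.3 to 16.1) on the rest.

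The upper tail set the ends apart further. Scores above 50 were given to 1 of 103 peaks in the X end (0.971%, 95% interval 0.025 to 5.29) and to 6.79% (5.81 to 7.87) on the rest of X. They were given to 38 of 129 peaks in the 2L end (29.5%, 21.8 to 38.1) and to 6.52% (5.46 to 7.72) on the rest of 2L. In the 3L end 9 of 56 peaks passed that level (16.1%, 7.62 to 28.3), against 5.20% (4.26 to 6.28) on the rest of 3L. The sparsest end thus held few peaks but a share of strong ones whose interval lay above that of the rest of its arm. In the 3R end 11 of 307 peaks did so (3.58%, 1.80 to 6.32), close to the 4.66% (3.93 to 5.47) on the rest of 3R. Scores above 100 occurred 8 times among the 595 peaks of the ends, and 94 times among the 9250 peaks on the rest of the 4 arms. Of the 8 in the ends, 4 were on 3L, 3 on 3R and 1 on 2L.

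Median width put the 4 ends in the same order as median score, with 2L first, then 3L, 3R and X. The median width was 458 bp (390 to 518) in the X end and 565 bp (537 to 596) on the rest of X. It was 693 bp (553 to 914) in the 2L end and 488 bp (471 to 518) on the rest of 2L. Median widths of 639 bp (385 to 913) in the 3L end and 458 bp (441 to 481) on the rest of 3L had overlapping intervals. So did those of 3R, with 501 bp (435 to 568) in the end and 542 bp (521 to 565) on the rest. Peaks wider than 2 kb made up 21.7% (14.9 to 29.8) of the 2L end and 6.58% (5.51 to 7.78) of the rest of 2L. In the other ends their share was between 4.56% on 3R and 5.83% on X, with intervals that overlapped those of the rest of the arm.

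Across peaks, score and width went together in each end, with Spearman's rho of 0.744 on X, 0.854 on 2L, 0.746 on 3L and 0.795 on 3R, given as a description of peaks that share a caller. Scores were therefore also set side by side at like width, in 3 classes with limits at 363 and 762 bp. In the class of widest peaks the median score was 56.5 (43.6 to 70.8) over 60 peaks of the 2L end and 30.5 (28.2 to 32.1) on the rest of 2L. In the middle class it was 17.2 (15.5 to 22.4) in the 2L end and 15.8 (15.3 to 16.4) on the rest, and in the narrowest class 10.4 (9.33 to 12.9) and 10.9 (10.6 to 11.2). The higher scores of the 2L end were thus found among its wide peaks, many of which belong to the array described below. The widest class has no upper limit, and the median width in the array was 2777 bp. The class medians were not recomputed without the array. The widest class of the X end had a median of 22.1 (18.0 to 34.2) over 25 peaks, against 27.2 (26.2 to 28.2) on the rest of X, with overlapping intervals. For X, the medians of the end stayed lower under each alternative run, but bounds of the difference from the rest included 0 under several. They did so for width among the strongest 50% (-247.5 bp, -463 to 254) and for width with either border 250 kb away (-80.5 bp, -195 to 39, further in, and -86 bp, -199 to 37, further out), and for score averaged over the 3 width classes (-2.16, -5.38 to 3.68) and with the border further in (-1.73, -4.61 to 0.22). Score with the border further out differed by -2.62 (-4.77 to -0.27).

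The 2L end held 1 array of wide and strong peaks, many of them about 5 kb apart, picked out after its values were seen. The array ran from 21417781 to 21543483 on 2L and consisted of 2 neighbouring regions with 7 and 27 peaks, 10.3 kb apart. Its 34 peaks were 26.4% of the peaks of the 2L end and covered 69.3% of 126 kb. Scores in the array ran from 6.8 to 109.99 with a median of 71.7 (56.8 to 85.1), and the median peak there was 2777 bp wide (1310 to 3797). Among the other 95 peaks of the 2L end the medians were a score of 17.2 (15.3 to 20.9) and 535 bp of width (440 to 641). The array held 30 of the 38 peaks of the 2L end with scores above 50, and 15 of the 21 peaks wider than 3 kb found in all 4 ends together.

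Many peaks of the array began about 5 kb apart. For 22 of its 34 peaks (64.7%, 46.5 to 80.3) another peak of the array began 4.75 to 5.25 kb further along, and for 12 none did. Between successive peaks of the array wider than 3 kb, 10 of 14 steps from start to start fell in that range. A peak start at that distance was found for 6 of the other 95 peaks of the 2L end (6.32%, 2.35 to 13.2) and for 15.2% (14.5 to 15.9) of the peaks on the rest of the 4 arms. The 4.75 to 5.25 kb limits were set after the steps had been seen. In flies the tandemly repeated histone genes are known to lie near the base of 2L. Whether the array coincides with them was not analysed here, and no source used here says how reads that match several copies of a repeat were placed.

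**Figure D4:**
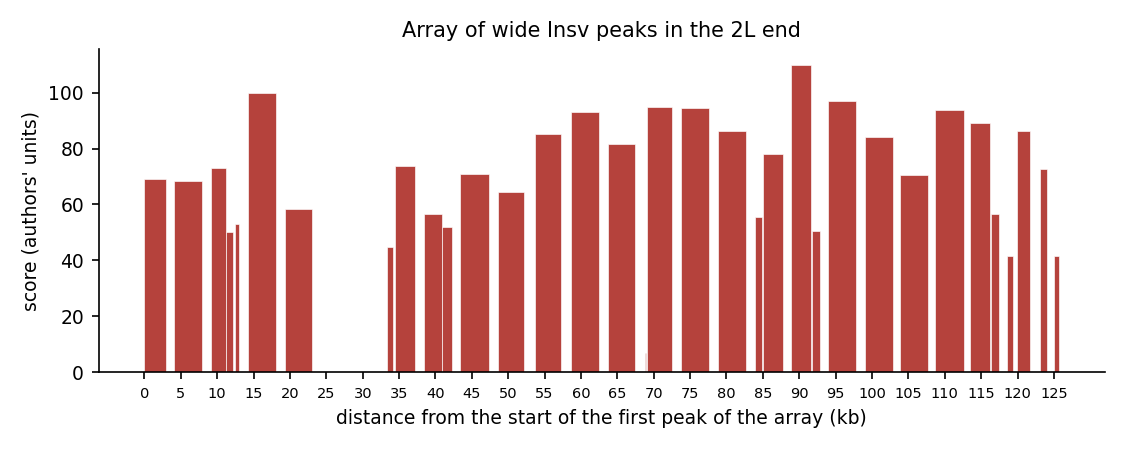
The 34 Insv peaks of the array in the 2L end, drawn to scale as bars with their width in kb on the horizontal axis (distance from the start of the first peak) and their score in the authors' units as height. Many wide bars begin about 5 kb apart, on both sides of a space of 10.3 kb, and all but 1 of the bars reach scores above 40.

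Without the array, the median score of the 2L end exceeded that of the rest of 2L by 1.42 (-1.09 to 5.61), where it had been 7.54 (2.22 to 12.1) with it. The bounds of such differences were taken from the outer limits of the intervals of both medians. The difference in median width was 47 bp (-78 to 170) without the array and 205 bp (35 to 443) with it. The density ratio of the 2L end was 0.571 (0.460 to 0.702) without the array and its length. The rest of 2L was kept whole, so this ratio could only fall. The array was picked as a block of mostly wide and strong peaks and was left out of the end only. The median score and width of the end therefore had to fall as well, and their fall is a description and no independent finding.

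The strongest members were spread over the ends. The strongest of all lay in the 3R end from 277833 to 279863, with a score of 186.19 and rank 18 among the 9845 peaks of the 4 arms, in a region of 8 peaks. Next in the 3R end were a peak from 1107837 to 1109371 with a score of 178.57 (rank 22) and a peak from 677880 to 678722 with a score of 107.6 (rank 82). The last of these was only 843 bp wide.

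In the 3L end the strongest peak, from 22827509 to 22829477, scored 171.36 (rank 27). It was followed by the peak from 22399767 to 22401616 with 117.94, which spans the border, and by the peak from 22871748 to 22872289 with 102.77, which was 542 bp wide. The 3 strongest of the 2L end were all in the array, from 21506679 to 21509411 with a score of 109.99, from 21431962 to 21435881 with 99.72 and from 21511738 to 21515644 with 96.85. The X end had no peak of that strength. Its strongest, from 20913652 to 20915104, scored 64.94 (rank 319), and the next scored 49.68 (21221120 to 21223654) and 47.47 (20937688 to 20939783).

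The widest peak of an end was not its strongest in any of the 4. It measured 4538 bp on X (21223813 to 21228350, score 35.67), 3951 bp on 2L (21461197 to 21465147, score 70.75), 3081 bp on 3L (22868210 to 22871290, score 31.67) and 3626 bp on 3R (1297803 to 1301428, score 25.88). Wider peaks than these occurred on the rest of each arm, up to 6631 bp on 2L and 9946 bp on X.

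The peak nearest to the centromere stood alone on each of the 4 arms, with no other peak within 5 kb. On X the innermost peak (22257048 to 22257308) had a score of 10.41 and its neighbour was 371 kb away. On 2L it lay from 22941485 to 22941795, scored 25.56 and was 413 kb from the next. On 3L it lay from 24462346 to 24463107, scored 27.87 and was 77.0 kb from the next. On 3R the innermost peak (32392 to 32754, score 36.92) had a neighbour at 8.18 kb.

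At the borders, the peak just inside the X end scored 18.82 (20262611 to 20262880) and the one just outside scored 37.92 (20127957 to 20128627). On 2L the peak just inside scored 15.26 (21051651 to 21052309) and the one just outside 10.64 (20937517 to 20937877). On 3L the peak just inside is the one of score 117.94 named above, and the one just outside scored 8.19 (22398748 to 22398958). On 3R the peak just inside scored 31.67 (1833276 to 1834497) and the one just outside 20.28 (2170979 to 2171780).

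Spacing was measured by gaps. A gap is the distance from a peak's midpoint to that of the next peak within the same end or the same rest. The share of gaps of 5 kb or less was 79.4% (70.3 to 86.8) in the X end and 78.8% (77.1 to 80.4) on the rest of X. On 3R it was 79.4% (74.4 to 83.8) in the end and 78.8% (77.3 to 80.2) on the rest. The 2L end had 65.6% (56.7 to 73.8), against 77.2% (75.2 to 79.0) on the rest of 2L, and the 3L end had 67.3% (53.3 to 79.3), against 73.8% (71.8 to 75.7) on the rest of 3L. In the X and 3R ends, with density ratios on either side of 1, close gaps were therefore about as frequent as on the rest of the arm.

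The median gap was 1914 bp (1530 to 2401) in the X end and 1840 bp (1758 to 1938) on the rest of X. In the 2L end it was 3440.25 bp (2496 to 4619), against 1923 bp (1810 to 2024) on the rest of 2L. The 3L values were 2665 bp (1457 to 3747) in the end and 1983 bp (1834 to 2100) on the rest. On 3R they were 1944 bp (1764 to 2176) in the end and 1720 bp (1655 to 1804) on the rest. Measured between facing edges, the share of close gaps in the 2L end differed from that on the rest of 2L by -6.72 percentage points (bounds of -17.2 and 2.78). Between midpoints the difference was -11.6 points (bounds of -22.3 and -1.44), among the strongest 50% -3.29 points (-17.4 to 10.2) and with the border 250 kb further out -7.89 points (-17.3 to 0.893). It was -17.5 points (-27.9 to -6.31) for a distance of 2 kb, -18.1 points (-31.0 to -5.85) with the border further in and -16.5 points (-29.0 to -4.67) without the array.

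Joined within 5 kb between facing edges, the peaks of the ends fell into 20 regions on X, 37 on 2L, 18 on 3L and 58 on 3R. Regions of 10 or more peaks held 41.7% of the peaks in the X end and 52.8% on the rest of X, 32.6% in the 2L end and 51.7% on the rest of 2L, and 23.2% in the 3L end and 40.4% on the rest of 3L. On 3R they held 53.4% in the end and 49.97% on the rest. Peaks that stood alone made up 5.83% of the X end and 6.07% of the rest of X, and 5.86% of the 3R end and 6.13% of the rest of 3R. They made up 10.1% of the 2L end and 8.51% of the rest of 2L, and 12.5% of the 3L end and 9.99% of the rest of 3L.

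The region with the most peaks held between 17.3 and 24.3% of the peaks of each end. The one in the X end ran from 20898834 to 20944756 with 25 peaks, a median score of 16.2 and a highest score of 64.94. In the 2L end it was the larger part of the array, from 21451108 to 21543483 with 27 peaks, a median score of 73.9 and 74.7% of its length covered. The 3L end had its largest from 22855514 to 22873721, with 13 peaks, a median score of 21.8 and a highest of 102.77. On 3R it ran from 1425636 to 1503361, with 53 peaks on 77.7 kb, a median score of 12.7 and a highest of 44.6. The largest regions of 2L and 3R thus differed in kind. The 27 peaks of the 2L region had a median width of 2756 bp, and both medians lay above those of the rest of 2L. The 53 peaks of the 3R region had a median width of 435 bp, and both medians lay below those of the rest of 3R. Without its largest region, the 3R end had a density ratio of 1.17 (1.02 to 1.33). The region was left out of the end only and the rest of 3R was kept whole, so this ratio could only fall.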

How the data were processed

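Insv ChIP-seq of Kc167 cells comprised 3 ChIP and 3 input samples. The score and position of each peak are as deposited by the authors in 1 list, made with MACS on FlyBase release 5, per the file headers. The submitters' processing notes name build BDGP5 and the tools MACS2 and BWA, with no version, and CASAVA (1.7.0.2 and 1.7.0.3). The threshold for calling, the treatment of duplicate reads and of reads that match several places, the use of the input and any pooling of replicates are not stated in the sources used here.

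Density was the number of peaks over the length from the border to the outermost peak midpoint on each side, because no release 5 genome was used. Ratios have exact conditional intervals, counts exact Poisson intervals, shares Clopper-Pearson intervals and medians order-statistic intervals, all at 95%. They were checked on simulated data drawn as independent counts and values, so the check does not cover the dependence of neighbouring peaks. No test was run, since the list holds no replicates. The members, borders and measures were chosen with earlier results of these data known, among them the low counts at the ends of X, 2L and 3L. Named in each end are the 3 strongest peaks, the widest, the innermost, those beside the border and the largest region. The longest stretch without a peak between members of the end is named too. The array on 2L was added after its values were seen. A gene table of release 6 was not used. Software was Python 3.11.15 (numpy 2.4.6, scipy 1.17.1, pandas 2.3.3), and figures were drawn in matplotlib 3.10.9.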

Additional observations from a re-analysis of the deposited data

Results flagged for a closer look

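Peaks outside the arms belong to none of the comparisons, and 3 scaffolds carried more than 3 peaks each, the level set for a closer look. Scaffold 3LHet, which holds heterochromatic sequence, carried 8 peaks with scores of 14.29 to 49.56 (median 22.6) and widths of 235 to 722 bp. No 2 of them lay within 5 kb, since the closest pair was 10.5 kb apart. The scaffolds 2RHet, 3RHet and YHet, below that level, carried 2, 3 and 1 peaks. Scores there reached 122.52 on 2RHet, and the closest pair on 3RHet was 0.39 kb apart. The unplaced scaffolds U and Uextra carried 9 and 300 peaks, with median scores of 15.4 and 47.7.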

How the results depend on the processing

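Density, width, score and spacing were recomputed with borders moved by 250 kb, and all but score with the strongest 50% of the peaks. Joined peaks were tried for density, other distances for spacing and width classes for score. The largest region was left out for density, width and score, and the array for the 2L values. Of 76 recomputed values, 61 lay within the interval of the value reported and none reversed a difference whose interval left out no difference. For density alone, 10 of 21 recomputed values lay within that interval and 11 moved out of it. Differences whose interval included no difference could change sign. On 3L the median width difference was 181 bp (-96 to 472), and -9 bp (-87 to 283) with the border 250 kb further out. The median score difference on 3L was 2.705 (-2.1 to 9.47), and -1.27 (-2.97 to 2.94) with that border. Leaving out the largest region for width and score, and leaving out the array, were chosen after seeing the data. The density ratio moved to 0.339 on X and 0.986 on 2L among the strongest 50%, and to 0.970 on 2L with peaks joined within 5 kb. With the border 250 kb further in it was 0.347 on X, 0.570 on 2L and 1.55 on 3R, and with the border 250 kb further out 0.872 on 2L and 0.476 on 3L. Without the largest region of the end it was 0.337 on X and 1.17 on 3R, and without the array 0.571 on 2L. Dense stretches were left out of the ends only, so the density ratios could only fall in these settings. The difference in median width on X was -247.5 bp (-463 to 254) among the strongest 50%, an interval that includes 0. The difference in median score on 2L was 13.8 with the border 250 kb further in and 1.42 without the array, and 2.56 (-0.30 to 7.13) without the largest region. The median width difference on 2L was 62 bp (-60 to 188) without that region, and both of these intervals include 0. The array and its larger part, which is that region, hold mostly wide and strong peaks. Leaving them out of the 2L end only thus had to lower its median score and width. The difference in close gaps on 3R was -8.52 points (-19.5 to 2.47) among the strongest 50%. The cause of these moves was not tested, except that leaving out regions or peaks leaves fewer of them. No paired analysis was possible because the list has no values per library, and for the same reason no replicate could be left out. The unknown depth limits which weak peaks were called.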
